A study of Mus musculus with 6 samples.

Results

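Dual-specificity phosphatases of the MAP kinase group (Dusp1, Dusp2, Dusp4, Dusp5, Dusp6, Dusp10 and Dusp16) and Sprouty-type inhibitors (Spry1, Spry2 and Spred1) were examined in gamma-irradiated and non-irradiated macrophages. These 10 genes were listed by name and found among the 24062 genes of the count tables, and 9 of them reached 10 counts in at least 1 library. RNA was sequenced from RAW264.7 cells, a transformed mouse macrophage line, although the tissue field of the sample labels reads bone marrow. M0 cells were unpolarized, M1 cells received LPS at 100 ng/mL with IFN-γ at 20 ng/mL for 24 h, and M2 cells received IL-4 at 20 ng/mL for 24 h. RM0, RM1 and RM2 cells were the corresponding states exposed to 10 Gy of gamma rays and then incubated for 24 h. Each of the 6 conditions was represented by 1 library made from RNA pooled over 5 wells, so differences between any 2 libraries had no replicate check. Whether the non-irradiated cells were also kept for the extra 24 h is not stated, so irradiation and time after polarization cannot be told apart.

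MAP kinases are switched on by phosphorylation of a threonine and a tyrosine in their activation loop, and dual-specificity phosphatases remove both phosphates. The phosphatases differ in their preferred kinase (ERK, JNK or p38) and in whether they act in the nucleus or the cytoplasm, and several of their genes are themselves induced by the kinases they switch off. Sprouty and Spred proteins act further upstream, between growth factor receptors, RAS and RAF, and limit how strongly the ERK branch is engaged. In macrophages some of these inhibitors, Dusp1 among them, are known for restraining the cytokine response to bacterial products such as LPS.

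Library totals were even, from 17894937 to 18870516 counts. Counts were scaled by the TMM method of edgeR, with factors from 0.8004 in M1 to 1.134 in M2, and are given below as CPM (counts scaled to the same library size). Of the 8 macrophage markers examined, 7 matched by symbol and ranged from 646 to 580239 counts, whereas all 3 T cell markers and all 4 epithelial markers were at 0 in the 6 libraries. Among 5 fibroblast markers Col1a2 and Col3a1 were at 0 throughout, Pdgfra had at most 4 counts, and Col1a1 had 1 count in M1 and 0 in RM1 against 5 to 11 elsewhere, but Dcn reached 627 counts in M1 and 726 in RM1 against 113 to 177 elsewhere. The summed fibroblast marker level, nearly all of it from Dcn, was 42.7 CPM in M1 and 43.8 CPM in RM1 against 5.92 to 9.32 CPM in the other 4 libraries. It differed in the same way as M1 and RM1 did from their unpolarized libraries, and its part in those comparisons was not tested. Between M1 and RM1 it was nearly level. In bulk RNA, fewer cells expressing a gene and less RNA per cell cannot be told apart.

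**Figure D1:**
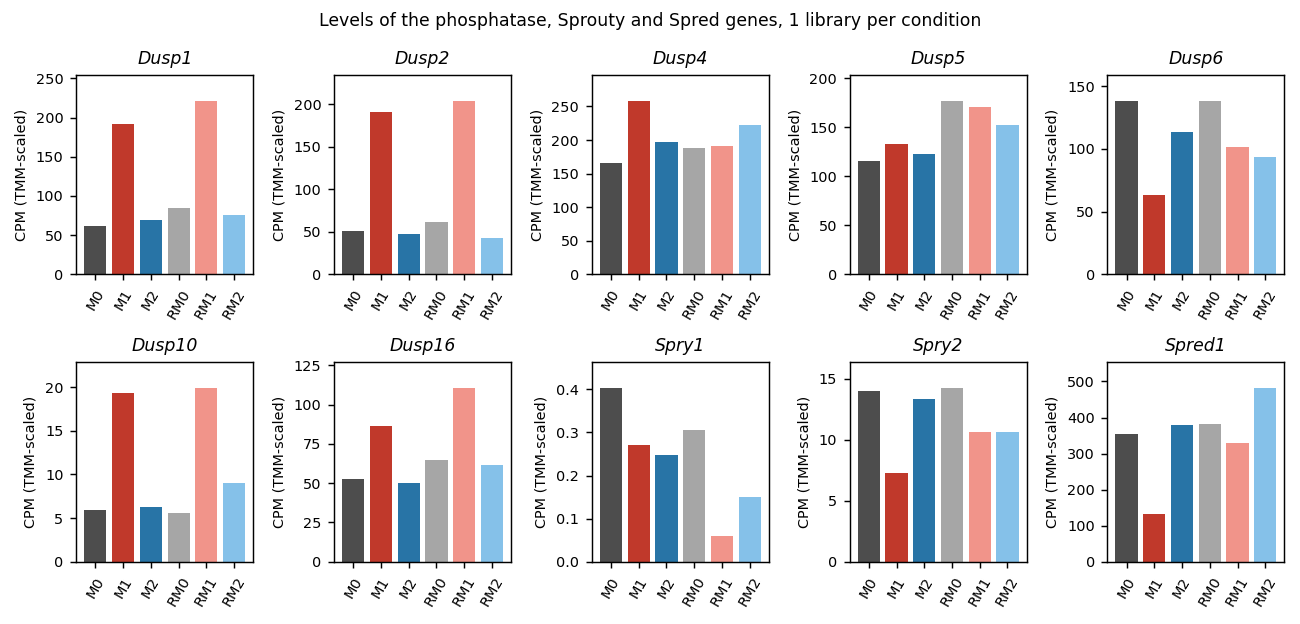
Levels of the 10 genes in each library, as TMM-scaled CPM, with 1 bar per library, a separate linear axis starting at 0 for each gene, and no error bars because each condition has 1 library. Dusp1, Dusp2, Dusp10 and Dusp16 stood highest in M1 and RM1, whereas Dusp6, Spry2 and Spred1 were lowest in M1. Spry1 had at most 8 counts in any library.

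Levels of different genes were compared per kilobase of transcript, and their order differed between M0 and M1. In M0 the highest levels per length were those of Dusp4 at 60.5, Spred1 at 58.8, Dusp6 at 49.5 and Dusp5 at 46.8 CPM per kb. Dusp2 at 31.6 and Dusp1 at 31.3 CPM per kb followed, and then Dusp16 at 10.3, Spry2 at 6.69 and Dusp10 at 2.13 CPM per kb, with Spry1 last at 0.163. Dusp2 and Dusp1 were next to each other in that order and differed by less than their counting error. In M1 the order was different, since Dusp2 at 118 and Dusp1 at 96.6 CPM per kb led, Dusp4 followed at 94.4, and Spred1 at 21.9 and Dusp6 at 22.6 had dropped to a level near that of Dusp16 at 16.9 CPM per kb. RM1 was again led by Dusp2 at 126 and Dusp1 at 111 CPM per kb, but with Spred1 at 54.9 and Dusp6 at 36.2 CPM per kb.

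**Figure D2:**
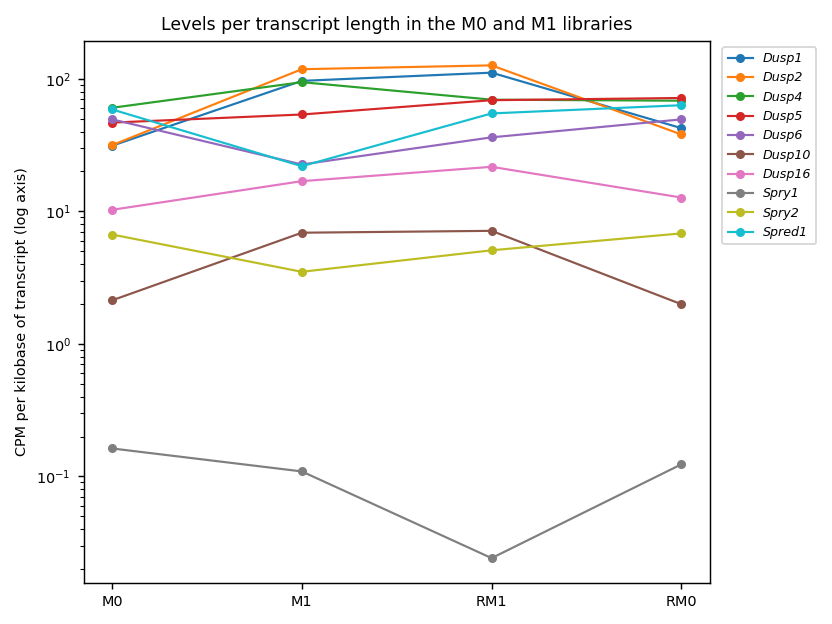
Levels of the 10 genes per kilobase of transcript in M0, M1, RM1 and RM0, as CPM per kb on a log axis, with 1 point per library joined by lines only to guide the eye. Dusp1 and Dusp2 rise from about the middle of the order in M0 to its top in M1 and RM1, Spred1 and Dusp6 dip in M1, and Spry1 lies far below all others.

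The nuclear phosphatases were described first. Dusp1, which prefers p38 and JNK and restrains inflammatory cytokine production, is a protein-coding gene at chr17:26505591-26508472 on the minus strand (GRCm38). Dusp2, a phosphatase of immune cells, lies at chr2:127336159-127338377 on the plus strand. Dusp4, which acts on ERK and JNK, lies at chr8:34807610-34819894, and Dusp5, which binds and inactivates ERK in the nucleus, at chr19:53529318-53541322, both on the plus strand. An exon of another gene on the opposite strand overlaps 547 bases of Dusp5, and because use of strand in the counting is not stated, reads of the overlapping gene cannot be told apart from those of Dusp5.

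The promoters of Dusp1 and Dusp2 are shown because these genes moved together in every M1 comparison, and that of Dusp5 because it carries the binding motif of serum response factor, a factor activated through ERK. Each sequence is the 250 bases before the RefSeq start (GRCm38.p6), 5′ to 3′ on the gene's strand. Capitals mark the CRE (TGACGTCA) and E-box (CACGTG) in Dusp1, the E-box in Dusp2 and a pair of adjoining CArG boxes in Dusp5. The windows are chr17:26508473-26508722 on the minus strand for Dusp1, chr2:127335909-127336158 on the plus strand for Dusp2 and chr19:53528895-53529144 on the plus strand for Dusp5, whose RefSeq start lies upstream of the start listed in the tables.
Dusp1: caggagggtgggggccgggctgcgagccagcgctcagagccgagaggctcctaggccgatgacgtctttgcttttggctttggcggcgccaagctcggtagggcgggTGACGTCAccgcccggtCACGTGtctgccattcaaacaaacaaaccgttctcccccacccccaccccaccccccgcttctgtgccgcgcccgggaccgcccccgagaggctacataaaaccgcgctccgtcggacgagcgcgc
Dusp2: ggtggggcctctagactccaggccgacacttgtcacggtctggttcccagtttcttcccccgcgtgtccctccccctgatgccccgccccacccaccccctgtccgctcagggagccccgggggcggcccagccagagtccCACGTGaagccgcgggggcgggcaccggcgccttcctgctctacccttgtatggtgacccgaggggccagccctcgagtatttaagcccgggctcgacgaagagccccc
Dusp5: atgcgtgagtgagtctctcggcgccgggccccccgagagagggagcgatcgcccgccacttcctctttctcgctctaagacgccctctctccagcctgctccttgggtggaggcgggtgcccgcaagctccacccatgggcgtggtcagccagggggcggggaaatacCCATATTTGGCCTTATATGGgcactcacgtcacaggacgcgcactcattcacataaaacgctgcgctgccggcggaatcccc

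Motifs were searched on both strands of the 300 bases from 250 before to 50 after the start. The search covered all 32851 windows and the 9 genes with such a window in RefSeq, which here include Spry1 but not Dusp4. The CRE occurred in Dusp1 alone of the 9, from -143 to -136 relative to the start, and in 1.79% of all windows. The E-box occurred in Dusp1 from -126 to -121 and in Dusp2 from -109 to -104, and in 7.15% of all windows. Dusp10 and Dusp16, which were also higher in M1 and RM1, had neither a CRE nor an E-box in their windows. In Dusp5 the CArG boxes lay from -82 to -73 and from -72 to -63, against 1.63% of all windows with at least 1 such box. The GC box (GGGCGG) was found in 7 of the 9 windows, with some boxes in Dusp16 sharing an end base, and in 35.7% of all windows. The 9 windows had from 57.3% GC (Dusp6) to 72.3% GC (Spred1), against a median of 52.7% over all windows. The part of GC content in the GC box matches was not tested. None of the 9 held the letters of AP-1 (TGAGTCA, 5.20% of all windows), ETS (CCGGAAG, 8.86%), GAS (TTCNNNGAA, 8.30%), the NF-kB consensus (4.51%) or the p53 half-site (8.36%). A match describes letters in the window and is not a site shown to be bound.

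Dusp1 was about 3 times as abundant in M1 as in M0. Its counts were 1235, 2842 and 1416 in M0, M1 and M2 and 1656, 3696 and 1503 in RM0, RM1 and RM2. On the CPM scale this was 62.3, 192, 69.8, 84.5, 222 and 75.8 in the same order. M1 and RM1 thus stood apart from the other 4 libraries, which lay between 62.3 and 84.5 CPM. M1 exceeded M0 by a log2 fold change of 1.62 (95% interval 1.53 to 1.72), and RM1 exceeded RM0 by 1.39 (1.31 to 1.48). These intervals, here and below, are exact binomial intervals of the reads of 2 libraries and cover counting error only.

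Dusp2 varied most of the 9 genes, by 4.72-fold between RM1 and RM2. It had 1014, 2828 and 965 counts in M0, M1 and M2 and 1206, 3409 and 860 in RM0, RM1 and RM2, or 51.1, 191, 47.6, 61.5, 204 and 43.3 CPM. As for Dusp1, the libraries polarized with LPS and IFN-γ were high and the remaining 4 did not reach them. On the log2 scale M1 was above M0 by 1.90 (95% interval 1.80 to 2.01) and RM1 above RM0 by 1.73 (1.64 to 1.83). After IL-4 the value was -0.10 without irradiation and -0.50 with it (RM2 against RM0, -0.634 to -0.378).

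Dusp4 and Dusp5 differed less between libraries, and neither passed 2-fold between any of the pairs compared. Dusp4 had 3288, 3826 and 3989 counts in M0, M1 and M2 and 3673, 3183 and 4401 in RM0, RM1 and RM2, or 166, 259, 197, 187, 191 and 222 CPM. Its highest library was M1 and the other 5 lay between 166 and 222 CPM. The M1 excess of 0.64 on the log2 scale (95% interval 0.575 to 0.710) had no counterpart in RM1 against RM0, where the log2 fold change was 0.03. Dusp5 had 2294, 1969 and 2488 counts in M0, M1 and M2 and 3476, 2847 and 3027 in RM0, RM1 and RM2, or 116, 133, 123, 177, 171 and 153 CPM. Here each irradiated library was higher than the non-irradiated library of its state, which was also so for Dusp1, Dusp16 and Spred1. The log2 fold change of Dusp5 was 0.62 in RM0 against M0 (0.541 to 0.694), 0.36 in RM1 against M1 (0.275 to 0.442) and 0.31 in RM2 against M2 (0.238 to 0.392).

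Dusp6, the cytoplasmic phosphatase that is specific for ERK and commonly read as a gauge of ERK signaling, went the other way from Dusp1 in M1. It lies at chr10:99263231-99267489 on the plus strand. Its counts were 2746, 934 and 2308 in M0, M1 and M2 and 2710, 1688 and 1852 in RM0, RM1 and RM2, or 138, 63.2, 114, 138, 101 and 93.3 CPM. M1 was the lowest library, M0 and RM0 were alike, and RM1 lay between M1 and RM0. M1 differed from M0 by a log2 fold change of -1.13 (95% interval -1.24 to -1.02), and RM1 from RM0 by -0.45 (-0.539 to -0.362). IL-4 went with lower Dusp6 too, by a log2 fold change of -0.28 without irradiation (-0.364 to -0.203) and of -0.57 with it (-0.653 to -0.481).

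Dusp10 and Dusp16 encode phosphatases that act on JNK and p38. Dusp10 (chr1:184034461-184075636, plus strand) had 118, 285 and 128 counts in M0, M1 and M2 and 109, 332 and 178 in RM0, RM1 and RM2, or 5.95, 19.3, 6.31, 5.56, 19.9 and 8.97 CPM. The pattern was that of Dusp1 and Dusp2, with M1 and RM1 nearly equal and far above the others. Its log2 fold change from M0 to M1 was 1.68 (95% interval 1.38 to 2.02), from RM0 to RM1 1.82 (1.52 to 2.17), and from RM0 to RM2 0.68 (0.338 to 1.05). Dusp16 (chr6:134715468-134792628, minus strand) had 1040, 1276 and 1013 counts in M0, M1 and M2 and 1272, 1846 and 1228 in RM0, RM1 and RM2, or 52.4, 86.3, 49.9, 64.9, 111 and 61.9 CPM. Both M1 and RM1 again exceeded the other libraries, by less than 2-fold within each pair. For Dusp16 the log2 fold change from M0 to M1 was 0.72 (0.600 to 0.838), and that from RM0 to RM1 was 0.77 (0.666 to 0.874).

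Among the Sprouty-type inhibitors, Spred1 was the most abundant and the most variable. Spred1, a membrane-associated protein that brings neurofibromin to RAS, lies at chr2:117121071-117182277 on the plus strand. It had 7018, 1950 and 7669 counts in M0, M1 and M2 and 7459, 5503 and 9566 in RM0, RM1 and RM2, or 354, 132, 378, 381, 330 and 482 CPM. A single library, M1, was low, while RM1 was close to M0 and RM2 was highest. From M0 to M1 the log2 fold change was -1.42 (95% interval -1.50 to -1.35), from RM0 to RM1 it was -0.21 (-0.256 to -0.155), and from M1 to RM1 it was 1.32 (1.25 to 1.40). The first and the last of these share the M1 library. RM2 exceeded M2 by a log2 fold change of 0.35 (0.307 to 0.394). Spred1 has a long transcript of 6016 bases with 41.2% GC, against medians of 2796 bases and 50.4% over all genes compared. A trend of fold change with GC content and length took 15.9% of the variance between genes in RM1 against M1, and with it removed, a step chosen after the data were seen, the log2 fold change of Spred1 was 0.93 and no longer reached 2-fold.

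Spry2, an inhibitor of RAS activation downstream of receptor tyrosine kinases, showed a smaller difference of the same direction as Dusp6. It lies at chr14:105891947-105896819 on the minus strand and had 277, 108 and 271 counts in M0, M1 and M2 and 279, 177 and 210 in RM0, RM1 and RM2, or 14.0, 7.30, 13.4, 14.2, 10.6 and 10.6 CPM. M1 was the lowest library and RM1 and RM2 were level. Spry2 was lower in M1 than in M0 by a log2 fold change of -0.92 (95% interval -1.27 to -0.609), and in RM1 than in RM0 by -0.42 (-0.704 to -0.147). Spry1 (chr3:37639950-37644599, plus strand) had 8, 4 and 5 counts in M0, M1 and M2 and 6, 1 and 3 in RM0, RM1 and RM2. These are too few for a fold change, and 148 bases of Spry1 are overlapped by an exon on the opposite strand.

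**Figure D3:**
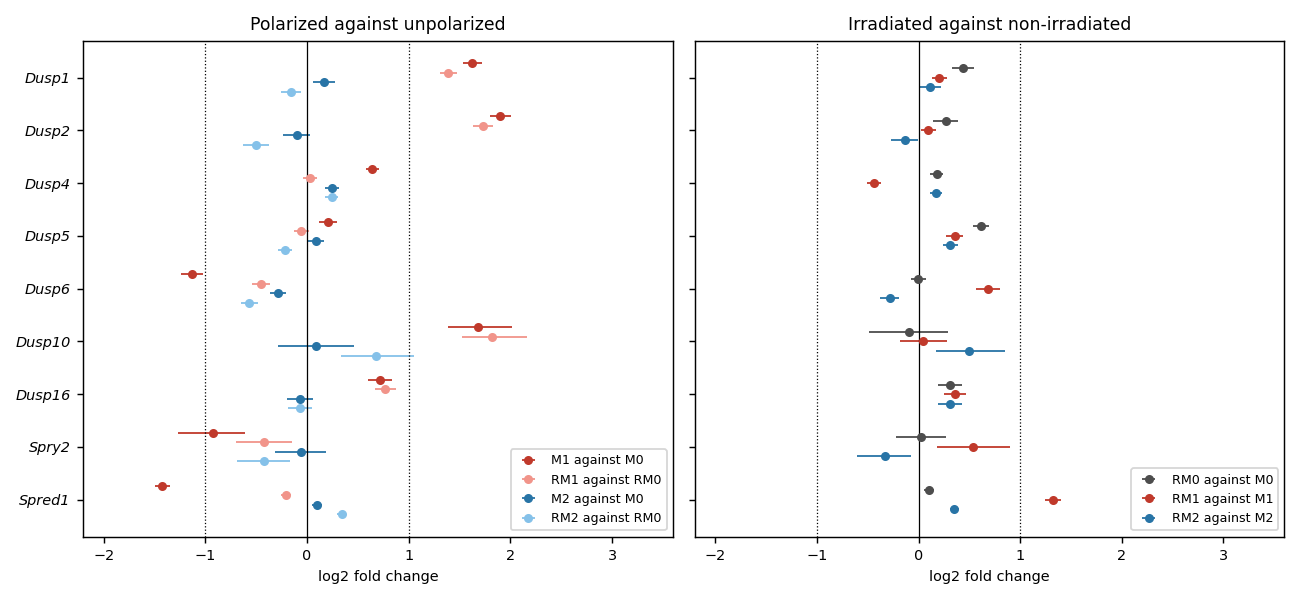
Log2 fold changes of the 9 genes with at least 10 counts, on the left for polarized against unpolarized libraries and on the right for irradiated against non-irradiated libraries of the same state, with 1 point per pair of libraries, bars for 95% intervals of counting error only, and dotted lines at 2-fold. In M1 and RM1 Dusp1, Dusp2 and Dusp10 lie beyond 2-fold, and on the right only Spred1 in RM1 against M1 does, at 1.32.

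With a call defined as a difference of at least 2-fold and at least 10 counts in 1 of the 2 libraries, 3 of the 9 genes (Dusp1, Dusp2 and Dusp10) were called higher in M1 than in M0, where 9.37% of 11778 genes were called higher. Dusp6 and Spred1 were called lower, where 13.3% of all genes were. Their median log2 fold change was 0.64, against -0.03 over all genes. In RM1 against RM0, a pair that shares no library with the first, Dusp1, Dusp2 and Dusp10 were called higher as well (6.16% of all genes) and none of the 9 lower (7.87%). The median of the 9 was 0.03 there. Scaling by library totals instead of TMM shifted all genes by -0.44 in M1 against M0 and -0.25 in RM1 against RM0. On that scale Spry2 was called lower too, with -1.36 in M1 against M0, and Dusp5 moved from 0.20 to -0.24.

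IL-4 went with no call among the 9 genes. In M2 against M0 their median log2 fold change was 0.08, and 0.995% of all genes were called higher and 0.442% lower. In RM2 against RM0 the median was -0.16, with 1.66% of all genes called higher and 0.953% lower. The values farthest from 0 were those of Dusp10, Dusp6 and Dusp2 given above, all in the irradiated pair.

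Effects of polarization over both irradiation states were examined by the quasi-likelihood test of edgeR, with an additive model of polarization and irradiation, in which the states stand in for replicates and the effect is assumed to be the same in each. In this test, with Benjamini-Hochberg adjustment over 11574 genes, 4 of the 9 genes rose and 3 fell with M1, where 23.3% of all genes rose and 24.3% fell. Dusp2 rose by 1.81 ± 0.133 on the log2 scale (SE, adjusted p = 3.82e-06), Dusp10 by 1.76 ± 0.193 (adjusted p = 5.55e-05), Dusp1 by 1.51 ± 0.127 (adjusted p = 1.01e-05) and Dusp16 by 0.74 ± 0.118 (adjusted p = 0.000545). Dusp10 and Dusp16 were thus among the genes that rose, as were Dusp1 and Dusp2 of the 4 nuclear phosphatases. Dusp6 fell by 0.76 ± 0.189 (adjusted p = 0.0072), Spred1 by 0.78 ± 0.233 (adjusted p = 0.0172) and Spry2 by 0.65 ± 0.209 (adjusted p = 0.0244). Dusp4 and Dusp5 did not pass (adjusted p = 0.0957 and 0.669). With DESeq2 the adjusted p was 0.0511 for Spry2 and 0.154 for Spred1, so those calls were not kept by both tools. M2 gave no gene of the 9 past the threshold, where 0.156% of all genes rose and 0.0346% fell, and 2 of the 9 were lower with an unadjusted p under 0.05 (Dusp2 and Dusp6, with adjusted p = 0.481 and 0.493), as were 4.42% of all genes. DESeq2 gave 0 of the 9 for M2 as well. No fit here, with or without M1 and RM1, took account of GC content or transcript length. Fitted without M1 and RM1, the 2 genes passed, with an adjusted p of 0.0432 for Dusp2 and 0.00107 for Dusp6, both lower, in a fit where 6.87% of all genes rose and 4.67% fell. That fit rests on 4 libraries and has fewer residual degrees of freedom than the 2 of the full fit.

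**Figure D4:**
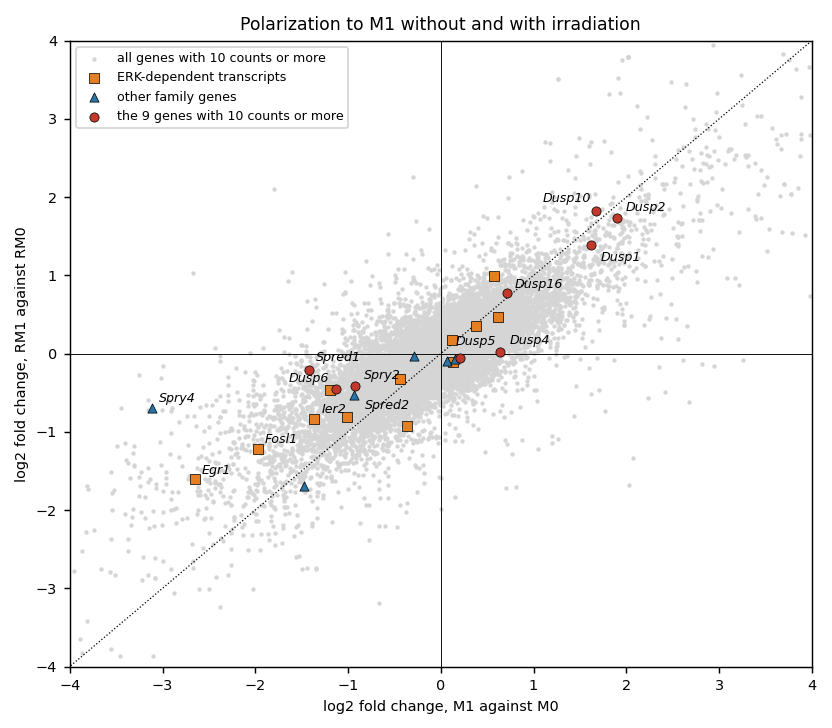
Log2 fold change in M1 against M0 (horizontal) and in RM1 against RM0 (vertical), with 1 point per gene, the 9 genes as red circles, other family genes as blue triangles, ERK-dependent transcripts as orange squares and all genes with at least 10 counts in grey. The dotted diagonal marks equal fold changes, and genes beyond 4 on either axis are not drawn. Dusp1, Dusp2, Dusp10 and Dusp16 lie near the diagonal, while Spred1, at -1.42 and -0.21, and Dusp6, at -1.13 and -0.45, lie above it.

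The differences seen in M1 were of like size with and without irradiation for some genes and not for others. For Dusp16 the log2 fold change was 0.72 without and 0.77 with irradiation, and for Dusp10 it was 1.68 and 1.82, with overlapping counting intervals in both cases. For Dusp1, Dusp4, Dusp5, Dusp6 and Spred1 the intervals of the 2 pairs did not overlap, and the irradiated pair had the value nearer to 0. Scaled by library totals, this order held for Dusp6 (-1.57 and -0.70) and Spred1 (-1.86 and -0.45), whereas Dusp1 had nearly equal values (1.18 and 1.14) and Dusp4 (0.20 and -0.22) and Dusp5 (-0.24 and -0.30) were no nearer to 0 in the irradiated pair. Whether these differences between pairs exceed the variation between cultures was not tested, because each condition has 1 library.

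Irradiation was compared within each state. None of the 9 genes was called in RM0 against M0, where 0.719% of all genes were called higher and 0.821% lower, or in RM2 against M2, where 1.03% were called higher and 0.932% lower. In RM1 against M1, 1 gene was called higher, Spred1, with 3.08% of all genes called higher and 2.25% lower. Over the 9 genes the median log2 fold change was 0.18 in RM0 against M0, 0.36 in RM1 against M1 and 0.17 in RM2 against M2, with medians over all genes of -0.00, -0.01 and -0.00. Dusp16 was higher by a similar amount in every state, with log2 fold changes of 0.31 (0.189 to 0.428), 0.36 (0.256 to 0.464) and 0.31 (0.188 to 0.431) for M0, M1 and M2. Dusp1 had values of 0.44 (0.334 to 0.548), 0.21 (0.135 to 0.277) and 0.12 (0.0123 to 0.224) in the same order. With scaling by library totals, the interval of Dusp1 in RM2 against M2 included 0. Dusp6 by contrast had 138 CPM in both M0 and RM0, and it was higher in RM1 than in M1 by 0.68 (0.564 to 0.797) and lower in RM2 than in M2 (-0.29, -0.375 to -0.197).

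In the additive model 0 of the 9 genes passed the quasi-likelihood test for irradiation, where 0.346% of all genes rose and 0.13% fell, and DESeq2 also gave 0. An unadjusted p under 0.05 was reached by 4 of them, all with higher values after irradiation, as it was by 7.88% of all genes in that direction. Their log2 fold changes were 0.43 ± 0.102 for Dusp5 (SE, adjusted p = 0.108), 0.33 ± 0.0963 for Dusp16 (adjusted p = 0.172), 0.59 ± 0.190 for Spred1 (adjusted p = 0.203) and 0.25 ± 0.102 for Dusp1 (adjusted p = 0.293). When M1 and RM1 were left out of the fit, 2 genes passed, Dusp5 with an adjusted p of 0.000133 and Dusp16 with 0.0486, in a fit where 2.45% of all genes rose and 2.1% fell. That fit rests on 4 libraries and has fewer residual degrees of freedom than the 2 of the full fit.

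The remaining genes of the same families were examined beside these. Spry3 was at 0 in all 6 libraries, and the other 6 reached 10 counts. Spry4, a close relative of Spry2, had 63, 4 and 46 counts in M0, M1 and M2 and 26, 13 and 41 in RM0, RM1 and RM2. It was lowest in M1, with a log2 fold change of -3.12 (95% interval -5.47 to -2.13) that rests on 4 counts, and the value was -0.69 in RM1 against RM0. With irradiation Spry4 was called lower in RM0 than in M0 (-1.19) and higher in RM1 than in M1 (1.23, from 13 against 4 counts, with an interval that includes 0). Spred2 had 901, 351 and 988 counts in M0, M1 and M2 and 944, 556 and 951 in RM0, RM1 and RM2, lower in both M1 and RM1, with log2 fold changes of -0.93 in M1 against M0 and -0.53 in RM1 against RM0. In the quasi-likelihood test for M1, 0 of the 6 rose and 3 fell, where 23.3% of all genes rose and 24.3% fell. Those that fell were Spry4 by 2.00 ± 0.536 (adjusted p = 0.0107), Spred2 by 0.72 ± 0.146 (adjusted p = 0.0023) and the ERK phosphatase Dusp9 with an adjusted p of 0.00793. Dusp7, Dusp8 and Spred3 did not pass, and they had adjusted p = 0.843, 0.568 and 0.928.

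Transcripts whose induction depends on ERK were read from a list of 13 genes, 12 of them tested. With M1, 2 rose and 7 fell in the quasi-likelihood test (23.3% and 24.3% of all genes). The 2 that rose, named here after their values were seen, were Ier3 (0.79 ± 0.151, adjusted p = 0.0017) and Myc (0.54 ± 0.121, adjusted p = 0.00424). In M1 against M0, 5 of the 12 were called lower and none higher, where 13.3% of all genes were called lower and 9.37% higher. Egr1, an immediate early transcription factor, had 1570, 185 and 1566 counts in M0, M1 and M2 and 1133, 315 and 1034 in RM0, RM1 and RM2. It was thus low in both M1 and RM1, with log2 fold changes of -2.65 in M1 against M0 and -1.61 in RM1 against RM0, and it fell by 2.09 ± 0.231 in the test (adjusted p = 5.79e-05). Fosl1, a subunit of AP-1, had 1240, 234, 1192, 1293, 472 and 1219 counts in the same order and log2 fold changes of -1.97 and -1.22. Ier2 had log2 fold changes of -1.37 and -0.83, and Egr2, called lower in M1 with 32 counts against 101, was called higher in M2 with 212 counts. In RM1 against M1 the median over the 12 genes was 0.37, against -0.01 over all genes. None of the 12 was called there, where 3.08% of all genes were called higher and 2.25% lower.

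Few genes of the kinases themselves were called. Over all genes, 9.37% were called higher and 13.3% lower in M1 against M0. In the quasi-likelihood test for M1, 23.3% of all genes rose and 24.3% fell, shares that apply to each list below. In M1 against M0 the median log2 fold change was 0.24 for MAP kinases, 0.02 for the kinases upstream of them, 0.33 for genes of the RAS module, -0.23 for kinases downstream and 0.04 for further inhibitors, against -0.40 for the ERK-dependent transcripts and -0.03 over all genes. Of 9 MAP kinase genes tested, 3 rose and 1 fell with M1, and none was called in M1 against M0. Mapk3, which encodes an ERK, had the largest log2 fold change among those with a mean of at least 50 counts, 0.96 in M1 against M0. Of 17 upstream kinase genes 3 rose and 3 fell, again with no call in M1 against M0. Of 11 genes that switch RAS on or off, 4 rose and 5 fell, and 4 were called lower in M1 than in M0. Those 4 were the RAS GTPase activators Rasa2 (-1.35) and Rasa1 (-1.22) and the exchange factors Rasgrp3 (-1.27) and Sos2 (-1.19), given as log2 fold changes. None of the 11 was called in RM1 against RM0, where the 4 had -0.45, -0.62, -0.65 and -0.48 in that order. In RM1 against M1 they had 0.84, 0.79, 0.55 and 0.71, so like Spred1 they were lowest in M1. Of 9 downstream kinases 3 rose and 3 fell, with Mapkapk2, a substrate kinase of p38, at 7479 counts in M0 and 12702 in M1 and a log2 fold change of 1.19. Mknk2 was at 3202 counts in M0 and 5864 in M1, a log2 fold change of 1.30. Rps6ka2, a substrate kinase of ERK, was at 195 counts in M0 and 36 in M1, a log2 fold change of -1.97. In RM1 against RM0 none of the 9 downstream kinases was called. The log2 fold changes there were 0.72 for Mapkapk2, 0.45 for Mknk2 and -0.94 for Rps6ka2.

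Of 10 further inhibitors of the pathway tested, 2 rose and 2 fell with M1, where 23.3% of all genes rose and 24.3% fell. Ptpn7, a tyrosine phosphatase of ERK and p38, had 2384, 621 and 2725 counts in M0, M1 and M2 and 2616, 940 and 2605 in RM0, RM1 and RM2. It was low in both M1 and RM1, with log2 fold changes of -1.51 in M1 against M0 and -1.24 in RM1 against RM0. Errfi1, a feedback inhibitor of the EGF receptor named here after its values were seen, was the 1 gene of all these lists to pass the quasi-likelihood test for irradiation (0.83 ± 0.134, adjusted p = 0.0254). Its counts were 1451, 1090 and 1437 in M0, M1 and M2 and 2182, 2962 and 2156 in RM0, RM1 and RM2, so the irradiated library was higher in each state.

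Likeness of pattern was measured as Pearson's r of log2 CPM over the 6 libraries, as a description only, since the points share scaling and 4 of the 6 lie close together. Within the 9 genes the highest values were 0.982 for Dusp6 with Spry2, 0.981 for Dusp1 with Dusp2 and 0.963 for Dusp1 with Dusp16, and the lowest was -0.938 for Dusp4 with Dusp6. Among 10190 genes, those most like Dusp2, the gene with the widest range, were Gm5483, Snupn and Il4ra, each with r of 0.998. Likeness of shape took no account of size. Snupn had between 237 and 269 raw counts in all 6 libraries, lowest in M1, so that its CPM values followed the TMM factors, which are lowest in M1 and RM1, while Il4ra had 672 in M0, 1783 in M1 and 1938 in RM1.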

How the data were processed

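The authors trimmed reads with Trimmomatic 0.36, aligned them with HISAT2 2.2.1 and counted them per RefSeq gene with HTSeq 0.11.3 on mm10, per the submitters' processing notes, and deposited raw counts, 1 table per library. Strand settings are not given in the sources used here. The 10 genes and the gene lists were chosen with earlier results of these data known, and named genes were the members, family genes with 10 counts or more, and at most 4 genes per list by change in M1 against M0 with a mean of 50 counts or more. Errfi1, Ier3 and Myc were named in addition, after their values were seen. TMM factors and the quasi-likelihood test came from edgeR 4.0.16 (R 4.3.3) on genes that reached 10 counts in 3 or more of the 6 libraries, with a threshold of 0.05 and 2 residual degrees of freedom. Fits with a state left out had fewer residual degrees of freedom. Fold changes used a prior count of 2, and 3 counts or fewer in both libraries gave none. Alternatives were DESeq2 1.42.0, scaling by DESeq2 factors or library totals, no filter, a prior count of 0.25, a 4-fold threshold, states left out and model terms left out. Intervals are exact Clopper-Pearson intervals at 95%. Promoter sequences came from RefSeq (GRCm38.p6), where 9 of the 10 genes matched and Dusp4 did not. Gene lengths are those of the RefSeq transcripts matched to the tables. The result of 1 marker list is not reported here.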

Additional observations from a re-analysis of the deposited data

Results flagged for a closer look

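For 4 genes the irradiated library was higher than its counterpart in one state and lower in another, with counting intervals that leave out 0 under all 3 scalings. Dusp2 had a log2 fold change of 0.27 in RM0 against M0 and 0.10 in RM1 against M1 (0.0239 to 0.169) but -0.13 in RM2 against M2. The last of these had an interval of -0.269 to -0.000148, which only just leaves out 0. Dusp4 had 0.18 in RM0 against M0 and 0.17 in RM2 against M2 but -0.44 in RM1 against M1. Dusp6 had 0.68 in RM1 against M1 and -0.29 in RM2 against M2, and Spry2 had 0.53 and -0.33. The difference between states was not tested for any of them, since each state has 1 library with and 1 without irradiation, and the intervals cover counting error only. With the trends of fold change on GC content and transcript length removed, the value of Dusp2 in RM2 against M2 was 0.03.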

How the results depend on the processing

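No paired analysis was possible because each condition has 1 library, so that no 2 conditions share more than 1 replicate, and the additive model already compared irradiation within each state. Of the 10 genes, the number called in RM1 against M1, 1 as reported, was 2 with no minimum count (the added gene is Spry1, with 1 count against 4), 0 at 4-fold and 0 with the GC and length trends removed, an alternative chosen after the data were seen. At 4-fold, 0 genes were called in M1 against M0 (5 as reported) and 0 in RM1 against RM0 (3 as reported). Without M1 and RM1, 2 genes passed the test for irradiation (2.45% of all genes rose and 2.1% fell) and 2 that for M2 (6.87% and 4.67%), against 0 each, and the cause was not tested. The fit without those libraries had fewer residual degrees of freedom than the full one. For M1, 7 genes passed as reported, 5 with DESeq2 and 6 with irradiation left out of the model, where Spred1 had an adjusted p of 0.163. Among the fitted values recomputed, 173 kept their direction and side of the threshold, 4 came to pass it and 3 no longer did. Among the fold changes of pairs recomputed, 220 moved by less than counting error and 53 moved by more, 27 under scaling by library totals and 26 with the trends removed, and no called value changed sign. Counting limits Spry1, Spry4 and Dusp9 most, and all calls between pairs lack a replicate check.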
